A study of Mus musculus with 10 samples.

Results

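The response to IL-17A was followed in primary keratinocytes of mouse pups labelled Bcl10+/-, which carry 1 mutant and 1 normal copy of Bcl10. Members were chosen by their labels: the 3 libraries titled Bcl10+/- IL17A and the 3 titled Bcl10+/- unstim, 6 of the 10 libraries of the series, with each treated library set against the unstimulated library of the same number. The other 4 libraries come from Bcl10-/- littermates (2 unstimulated, 2 treated) and are used to show where the heterozygous response differs. All cells came from skin of pups at postnatal day 4 to 5 of the strain labelled Bcl10tm1Mak. The cells that serve as controls therefore carry a mutant allele too, and no wild-type cells are analysed here. The serum-free medium held calcium chloride at 0.05 mM, a low level that keeps keratinocytes largely undifferentiated, and wells were coated with collagen. Treated cells received recombinant mouse IL-17A at 200 ng/mL for 5 h. Poly(A) RNA was selected from 100 ng of RNA per library. A pair of libraries with the same genotype and number is called a culture below. The labels do not say whether a number stands for a separate animal, litter or well, so the p-values reflect only how these cultures vary, which may be technical.

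IL-17A is a T cell cytokine that binds the receptor chains IL-17RA and IL-17RC on epithelial cells. The receptor signals through the adaptor ACT1 (gene Traf3ip2) and TRAF6 to NF-kB and MAP kinases, and it also stabilizes inflammatory mRNAs. In the epidermis it is known for inducing neutrophil-attracting chemokines, antimicrobial proteins and IL-36 cytokines, together with feedback regulators such as the ribonuclease Regnase-1 (gene Zc3h12a). BCL10 joins CARD-family proteins to the protease MALT1 in a complex that also feeds NF-kB.

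Bcl10 was looked at first, as a check of the labels. Its level (FPKM, fragments scaled to transcript length and library size) was 18.0 in unstimulated and 16.3 in IL-17A-treated heterozygous culture 1, 67.0 and 72.3 in culture 2, and 59.5 and 60.6 in culture 3. The libraries labelled Bcl10-/- held 0.969 and 17.0 FPKM unstimulated and 16.4 and 16.6 FPKM with IL-17A. Culture 1 thus stood at the level of 3 of the 4 libraries labelled Bcl10-/-, which goes against its label. Malt1, the gene of the protease partner, was 4.67 and 5.04 FPKM in culture 1 and 2.49 to 2.65 FPKM in cultures 2 and 3. The library numbers in the titles also place culture 1 (13 and 14) next to those labelled Bcl10-/- (1 to 10) and apart from cultures 2 and 3 (33 to 38). Results are therefore given per culture and, where they move, without culture 1.

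The estimated depth of the 6 heterozygous libraries was 15.6 to 28.6 M fragments, and 11889 to 11987 genes stood at 1 FPKM or more in each. The 11 keratinocyte markers summed to 11530 to 14610 FPKM without and 10790 to 13190 FPKM with IL-17A, with Krt15 listed at 0. Of 11 immune markers in the table, 8 were at 0 in all 6 libraries (among them Ptprc, Cd3e and Itgam), and the list summed to 5.43 to 10.3 FPKM without and 5.10 to 10.55 FPKM with IL-17A. Fibroblast markers (7 of 9 under 1 FPKM) summed to 9.82 to 15.7 and 9.37 to 12.8 FPKM. The 7 melanocyte markers summed to 201, 392 and 320 FPKM in unstimulated cultures 1, 2 and 3 and to 192, 411 and 329 FPKM with IL-17A, so they differed between cultures more than within them. Mitochondrially encoded genes held 1.98%, 1.11% and 1.495% of all FPKM in the unstimulated and 2.07%, 1.11% and 1.26% in the treated libraries.

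After 5 h with IL-17A, all 3 heterozygous cultures held more mRNA of the calprotectin subunits S100a8 and S100a9, of small proline-rich genes of the Sprr2 cluster, of the chemokines Cxcl1, Cxcl2 and Cxcl5, of the cytokines Csf3, Csf2 and Il1f6, and of the regulators Zc3h12a and Nfkbiz. None of the 12054 tested genes passed an adjusted p of 0.05 in limma with culture as a fixed block (0% called). In that fit 835 genes had an unadjusted p under 0.05, where 602.7 would lie if no gene changed, and the smallest adjusted p was 0.0545. With culture as a random effect limma called 15 genes, 14 up (0.116% of tested genes) and 1 down (0.0083%). Fewer calls were made when 1 culture was left out: 4 of the 15 were called again without culture 1, 1 without culture 2 and 4 without culture 3. Such fits have fewer pairs and 4 rather than 6 residual degrees of freedom. A call can thus be lost even where all cultures agree, and its loss does not show that 1 culture carried the gene. Sprr2e alone was called in all 3 of those fits, Slc5a1 and Gm25894 in 2, S100a8 and Sprr2g in 1, and the other 10 (among them Zc3h12a, Nfkbiz, S100a9, Il1f5, Steap4, Cebpd and Arntl2) in 0. When the culture numbers were ignored it called 1, Sprr2e. The values below are therefore given per culture, and "higher" or "lower" describes these libraries. Log2 changes are on the log2(FPKM + 1) scale, which understates the change of low genes.

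A repeat rule picked out the genes that moved by at least 0.3 log2 units (1.23-fold on that scale) the same way in every heterozygous culture. It held for 65 genes up (0.539% of tested genes) and 23 down (0.191%). Any shift above 0 in 3 of 3 cultures was met by 1760 genes (14.6%) and any shift below 0 by 2331 (19.3%). Small shifts thus leaned downward in the FPKM as deposited, while those past 0.3 leaned upward. The median log2 change of all tested genes was -0.013, but -0.0017 with median-of-ratios scaling. The counts above and below 0 were not repeated with that scaling, so the small lean may depend on it. Of the 65 genes 48 are annotated as protein-coding. The log2 changes of the 65 ran from 0.39 to 1.85 with a median of 0.69, and the highest was that of the snoRNA gene Gm25894, named here after its values were seen. All treated values lay above all unstimulated values in 33 of the 65 (1.5% of tested genes do so), and below them in 14 of the 23 (2.05%). The repeat rule uses the same values, so these counts describe the genes and are not a test. In 23 of the 65 and 11 of the 23, both group means were under 5 FPKM.

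**Figure D1:**
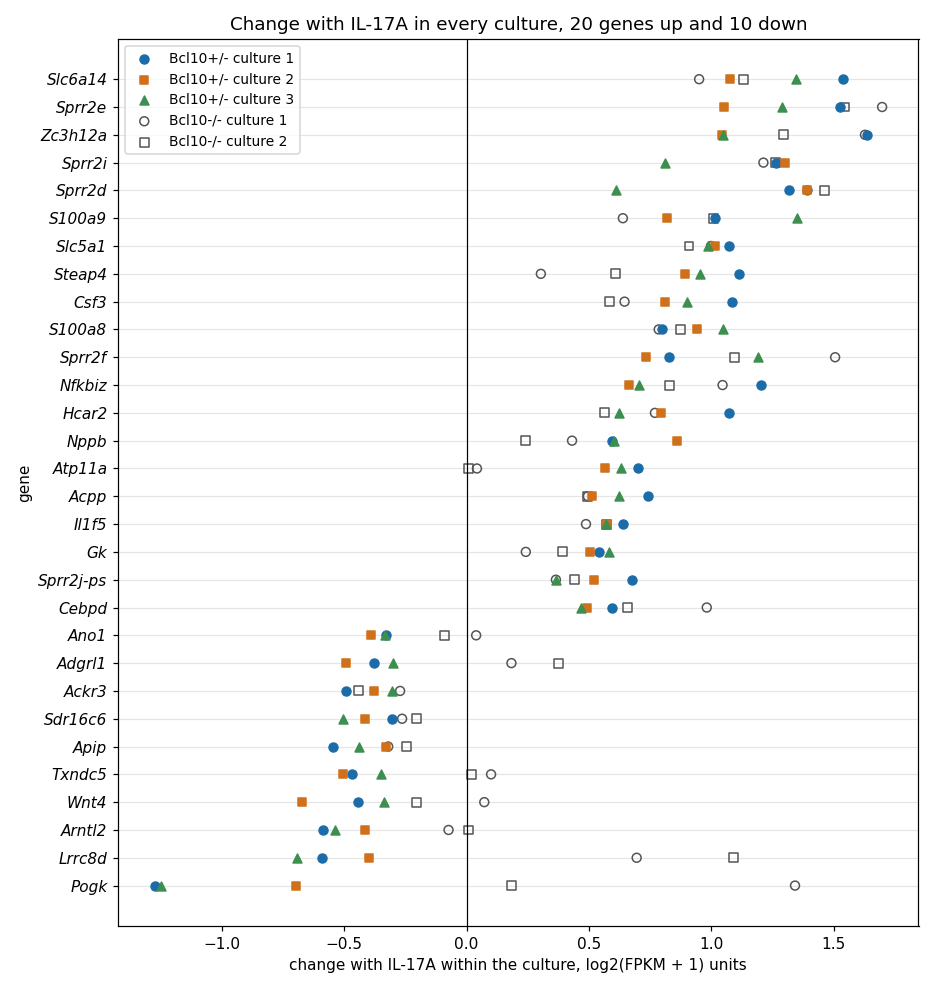
Change with IL-17A within each culture (x axis, log2(FPKM + 1) units) for the 20 protein-coding genes up and the 10 down with the smallest p among those that met the repeat rule (y axis). Filled symbols are the 3 Bcl10+/- cultures, all beyond 0.3 by the rule, and open symbols the 2 Bcl10-/- cultures, which lie at 0.04 and 0.01 for Atp11a and to the right of 0 for Lrrc8d and Pogk.

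Receptor and proximal signalling genes showed no common shift. Of 20 tested members, 0 met the repeat rule in either direction, and the median log2 change was -0.0028 (all tested genes -0.01). Il17ra, the receptor chain shared within the family, was 6.08, 5.73 and 5.63 FPKM in unstimulated cultures 1, 2 and 3 and 5.33, 6.31 and 5.53 FPKM with IL-17A. Its partner Il17rc was 11.9, 7.06 and 8.65 FPKM without and 9.97, 6.23 and 8.67 FPKM with IL-17A. Both receptor chains were detected in every culture, and treated and unstimulated levels overlapped. Traf3ip2, which encodes ACT1, was 14.3, 11.8 and 14.0 FPKM without and 14.9, 13.2 and 14.2 FPKM with IL-17A. The member with the smallest p was Ikbke, an IKK-related kinase, at log2 0.40 (SE 0.09, limma adjusted p = 0.483).

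NF-kB subunits and feedback inhibitors likewise held 0 of 14 members that met the rule, with a median of 0.09 that was 0.0049 without culture 1. The inhibitor Nfkbia, a classical immediate NF-kB target, moved by 0.42, 0.24 and 0.05 in cultures 1, 2 and 3. The deubiquitinase Tnfaip3 moved by 0.71, -0.36 and -0.01, and the nuclear cofactor Bcl3 by 0.93, 0.23 and 0.34. All 3 genes had their highest change in culture 1. Of the 12 tested genes of the CARD-BCL10-MALT1 complex and of MALT1 substrates, 1 met the rule (median 0.01), Zc3h12a, which also belongs to the next group.

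Regulators known as IL-17 effectors held 5 of 14 members that met the repeat rule upward and 0 downward, with a median of 0.23 (0.15 without culture 1). Zc3h12a (ENSMUSG00000042677, GRCm38 chromosome 4, 125118423 to 125127840, minus strand) encodes Regnase-1, a ribonuclease that degrades inflammatory mRNAs and is itself cleaved by MALT1. It was 6.06, 9.95 and 13.0 FPKM without and 20.9, 21.5 and 28.0 FPKM with IL-17A. Every treated library exceeded every unstimulated one, for means of 9.68 ± 3.50 and 23.5 ± 3.94 FPKM (SD, n = 3) and a log2 change of 1.24 (SE 0.14, limma adjusted p = 0.130). With culture as a random effect its limma adjusted p was 0.0149, but 0.0525 to 0.146 when 1 culture was left out.

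Nfkbiz (ENSMUSG00000035356, chromosome 16, 55811375 to 55838899, minus strand) encodes IkappaB-zeta, a nuclear cofactor for secondary NF-kB targets. It was 23.3, 25.3 and 30.3 FPKM without and 55.0, 40.7 and 49.99 FPKM with IL-17A. The groups did not overlap, and the log2 change was 0.86 (SE 0.12, limma adjusted p = 0.251, or 0.0180 with culture as a random effect and 0.103 to 0.114 when that fit left out 1 culture). Cebpd, a C/EBP transcription factor, was 16.7, 20.97 and 19.7 FPKM without and 25.8, 29.9 and 27.6 FPKM with IL-17A. These groups did not overlap either, and the change was even over cultures (0.59, 0.49 and 0.47). The related factor Cebpb was 26.1, 48.5 and 49.9 FPKM without and 47.1, 49.4 and 47.9 FPKM with IL-17A. Cebpb was thus clearly higher with IL-17A in culture 1 alone, where it started from a lower level.

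Steap4 (ENSMUSG00000012428, chromosome 5, 7960457 to 7982213, plus strand), which encodes a metalloreductase, was 0.736, 1.48 and 2.54 FPKM without and 2.75, 3.60 and 5.85 FPKM with IL-17A. All treated values exceeded all unstimulated ones, with a log2 change of 0.99 (SE 0.09, limma adjusted p = 0.0733, or 0.0454 with the random effect and 0.0702 to 0.406 when 1 culture was left out). Irak3, a negative regulator of IL-1 and Toll-like receptor signalling, was the fifth member, with changes of 0.34, 0.34 and 0.54. Zc3h12c, Zfp36 and Socs3, other feedback genes of the list, did not meet the rule.

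**Figure D2:**
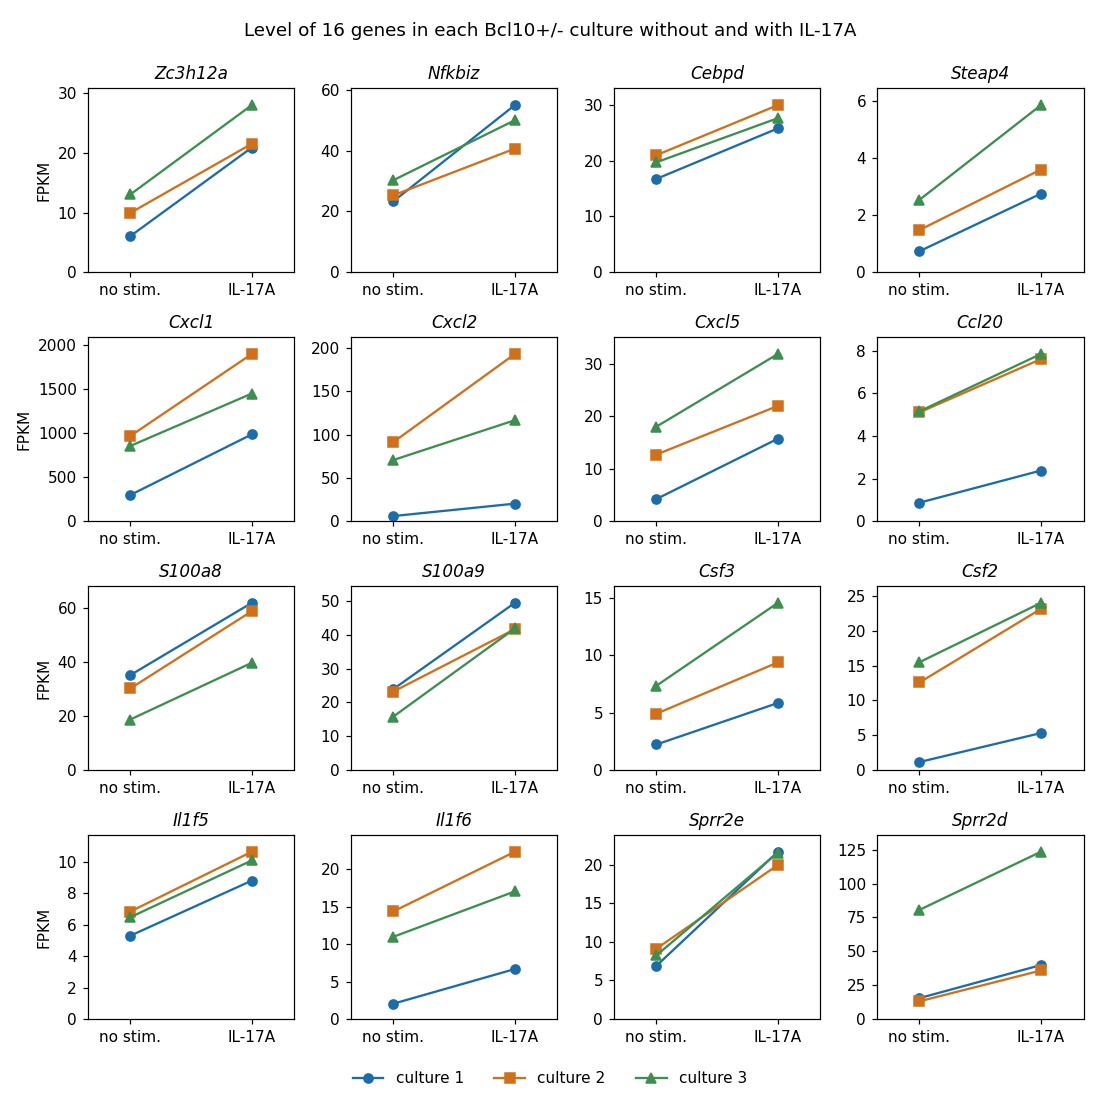
Level (y axis, FPKM from 0) of 16 genes in unstimulated and IL-17A-treated libraries (x axis), with a line joining the 2 libraries of each Bcl10+/- culture. All 16 genes met the repeat rule upward, so every line slopes upward by selection. Culture 1 starts lowest for the chemokines Cxcl1, Cxcl2, Cxcl5 and Ccl20, while for Sprr2e the 3 treated libraries meet between 19.96 and 21.7 FPKM.

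Of the 10 tested chemokines 4 met the rule upward and 0 downward, with a median of 0.34. The median was 0.86 in culture 1, 0.26 in culture 2 and 0.31 in culture 3. Cxcl1 (ENSMUSG00000029380, chromosome 5, 90891241 to 90893115, plus strand), a neutrophil attractant, was 296, 966 and 853 FPKM without and 985, 1898 and 1449 FPKM with IL-17A. The treated level of culture 1 lay just above the highest unstimulated level, so the groups did not overlap, and the log2 change was 1.16 (SE 0.19, limma adjusted p = 0.332). Its close relative Cxcl2, which shares its receptor, was 5.90, 91.3 and 70.6 FPKM without and 20.2, 193 and 117 FPKM with IL-17A. Culture 1 was far below cultures 2 and 3 in both conditions, and its treated level was under their unstimulated level. It stood nearer to the libraries labelled Bcl10-/-, at 8.05 and 9.25 FPKM without and 9.53 and 15.7 FPKM with IL-17A. The change in culture 1 was nevertheless the highest of the 3 heterozygous cultures, at log2 1.62 against 1.07 and 0.72.

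Cxcl5, another neutrophil attractant, was 4.22, 12.7 and 18.0 FPKM without and 15.7, 22.0 and 31.9 FPKM with IL-17A. Ccl20, which attracts T cells and dendritic cells that bear CCR6, was 0.866, 5.10 and 5.15 FPKM without and 2.38, 7.60 and 7.84 FPKM with IL-17A. Both were higher in the treated library of each culture, the groups overlapped, and neither passed (limma adjusted p = 0.381 and 0.442). Cxcl3 moved by 0.90, 0.16 and 0.08 and the interferon target Cxcl10 by 0.86, -0.07 and -0.11, so these were clearly higher in culture 1 alone. Cxcl14, a chemokine of resting epithelium, moved by -0.21, -0.23 and 0.06.

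Promoters were read because 4 of the 10 tested chemokines met the rule upward and NF-kB is a textbook regulator of chemokines. Windows were available for 19 list members that met the rule upward. For Nfkbiz, Cebpd, Csf3, Cxcl5, Il1f6, Sprr2g and Sprr2j-ps, which also met it, there was none. Those printed here, of chemokines and of Steap4, were chosen because they hold a kB match. The rest of the 19, among them Zc3h12a, S100a8, S100a9, Csf2 and Lif, hold no such match. Sequences are RefSeq windows of GRCm38.p6, from 250 bases before to 50 after the start, and matches to the 10-letter kB consensus on either strand are in capitals. The windows of Cxcl1 and Cxcl2 hold the same 11 letters, 71 and 97 bases before the start, where a match on each strand overlaps. Ccl20 and Steap4 share the match GGAAAACCCC, 80 and 226 bases before the start, and Steap4 has a second, GGGATGCCCC, at 250 bases and a match to the C/EBP pattern TTGCNNAA at 87.

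Cxcl1, chr5:90890995-90891294, plus strand: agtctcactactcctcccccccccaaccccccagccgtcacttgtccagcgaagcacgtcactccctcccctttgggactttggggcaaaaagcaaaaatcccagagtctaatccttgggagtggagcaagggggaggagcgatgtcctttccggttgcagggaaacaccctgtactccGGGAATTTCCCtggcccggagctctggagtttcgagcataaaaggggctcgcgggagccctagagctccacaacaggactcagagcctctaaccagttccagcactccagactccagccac
Cxcl2, chr5:90903649-90903948, plus strand: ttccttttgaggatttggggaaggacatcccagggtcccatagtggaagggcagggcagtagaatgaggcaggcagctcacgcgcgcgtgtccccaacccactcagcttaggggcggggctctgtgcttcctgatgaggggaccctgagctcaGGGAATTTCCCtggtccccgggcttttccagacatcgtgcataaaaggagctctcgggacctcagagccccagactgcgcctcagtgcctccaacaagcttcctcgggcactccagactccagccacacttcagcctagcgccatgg
Ccl20, chr1:83116516-83116815, plus strand: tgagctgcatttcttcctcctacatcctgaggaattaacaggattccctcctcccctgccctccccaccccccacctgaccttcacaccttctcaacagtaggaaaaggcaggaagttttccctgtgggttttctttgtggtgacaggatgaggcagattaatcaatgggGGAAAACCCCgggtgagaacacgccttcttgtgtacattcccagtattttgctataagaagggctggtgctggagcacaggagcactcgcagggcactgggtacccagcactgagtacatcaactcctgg
Steap4, chr5:7960222-7960521, plus strand: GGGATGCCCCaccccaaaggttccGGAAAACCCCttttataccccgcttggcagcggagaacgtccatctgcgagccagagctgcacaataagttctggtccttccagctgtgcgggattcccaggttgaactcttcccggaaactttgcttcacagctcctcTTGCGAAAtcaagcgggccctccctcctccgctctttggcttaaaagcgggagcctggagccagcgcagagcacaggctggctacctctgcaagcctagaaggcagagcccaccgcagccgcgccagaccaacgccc

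Windows on chromosome 18 were left out of every motif share, here and for AP-1 below. Of the 65 genes, 40 matched the windows kept, with 45 windows. The kB consensus was in 6 of these windows (13.3%), against 5.17% of the windows of tested genes and 4.51% of all windows kept. TTGCNNAA on either strand was in 15.6%, against 7.88% and 10.8%. Of the 6 windows with the kB consensus, those of the close relatives Cxcl1 and Cxcl2 share the same match and are not independent. For the 16 windows of the 23 genes down, the shares were 6.25% for the kB consensus and 12.5% for TTGCNNAA. These matches describe letters in the windows and do not show binding.

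Antimicrobial and acute-phase genes had 6 of 22 members at the level tested, of which 2 met the rule upward and 0 downward (median 0.35). S100a8 (ENSMUSG00000056054, chromosome 3, 90668978 to 90670035, plus strand), a subunit of the metal-binding antimicrobial protein calprotectin, was 35.2, 30.2 and 18.7 FPKM without and 62.0, 58.9 and 39.7 FPKM with IL-17A. All treated values exceeded all unstimulated ones, and the log2 change was 0.93 (SE 0.06, limma adjusted p = 0.0545, or 0.0180 with culture as a random effect and 0.0164 to 0.320 when that fit left out 1 culture). Its partner S100a9 was 23.9, 23.2 and 15.8 FPKM without and 49.4, 41.7 and 41.9 FPKM with IL-17A. S100a9 did not overlap between groups, and its log2 change was 1.06 (SE 0.12, limma adjusted p = 0.133, or 0.00891 with the random effect and 0.0542 to 0.114 when 1 culture was left out). Unlike the chemokines, the calprotectin genes were not lower in unstimulated culture 1 than in the others, and their change was not highest there.

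The protease inhibitor Slpi moved by 0.31, 0.29 and 0.33 in cultures 1, 2 and 3, just outside the rule because of culture 2, and the defensin Defb14 by 0.52, 0.28 and 0.38. S100a7a (psoriasin) moved by -0.34, 0.11 and -0.06. The other 16 genes were below the filter. Lcn2 and Camp, well-known antimicrobial genes of inflamed skin, were listed at 0 to 0.123 FPKM and at 0 in the 6 libraries. The acute-phase genes Saa1, Saa2 and Saa3 were also listed at 0. A listed 0 can be a failed estimate in this table: Gapdh, a gene of glycolysis that every cell uses, was listed at 0.278 to 4.58 FPKM.

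Of 11 tested colony-stimulating factors and other cytokines 3 met the rule upward and 0 downward (median 0.31). Csf3 (ENSMUSG00000038067, chromosome 11, 98701263 to 98703629, plus strand), the granulocyte growth factor, was 2.22, 4.91 and 7.34 FPKM without and 5.84, 9.37 and 14.6 FPKM with IL-17A. Each culture was higher with IL-17A but the groups overlapped, since the cultures differed before treatment. Its log2 change was 0.93 (SE 0.07, limma adjusted p = 0.0545, or 0.190 with culture as a random effect). Csf2, which acts on granulocytes and macrophages, was 1.15, 12.6 and 15.5 FPKM without and 5.31, 23.1 and 23.99 FPKM with IL-17A. As with Cxcl2, treated culture 1 was below unstimulated cultures 2 and 3, and the changes were 1.55, 0.83 and 0.60. Lif, a cytokine of the IL-6 family, was 5.30, 4.88 and 5.70 FPKM without and 7.71, 6.60 and 7.40 FPKM with IL-17A. Lif did not overlap between groups, at log2 0.39 (SE 0.06, limma adjusted p = 0.266). Il24 moved by 0.31, 0.33 and 0.26 and Tnf by 0.76, 0.43 and 0.21, and Il6 was listed at 0.

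In the IL-1 and IL-36 family 3 of 10 tested members met the rule upward and 0 downward (median 0.33, or 0.19 without culture 1). Il1f5, the IL-36 receptor antagonist (ENSMUSG00000026983, chromosome 2, 24276954 to 24283426, plus strand), was 5.30, 6.84 and 6.48 FPKM without and 8.81, 10.6 and 10.1 FPKM with IL-17A. The groups did not overlap, and the log2 change was 0.59 (SE 0.05, limma adjusted p = 0.0733, or 0.00884 with the random effect and 0.0697 to 0.121 when 1 culture was left out). The agonist Il1f6 (IL-36 alpha) was 2.03, 14.4 and 10.98 FPKM without and 6.67, 22.4 and 17.1 FPKM with IL-17A. The agonist Il1f9 (IL-36 gamma) was 6.35, 5.47 and 5.39 FPKM without and 8.82, 8.13 and 6.97 FPKM with IL-17A. Agonists and antagonist were thus all higher with IL-17A in each culture. Il1rn, the IL-1 receptor antagonist, was 3.38, 1.40 and 1.83 FPKM without and 3.50, 6.83 and 8.08 FPKM with IL-17A. It was clearly higher in cultures 2 and 3 and nearly level in culture 1, at log2 1.14 (SE 0.34, limma adjusted p = 0.663), or 1.69 without culture 1. Il1a moved by 0.81, 0.29 and 0.21. Il1b was at 0 in 5 of the 6 libraries.

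The Sprr and late cornified envelope list had 8 of 24 tested members that met the rule upward and 0 downward (median 0.32), but the median was 0.14 with TPM scaling and with a mean of at least 5 FPKM. These genes encode precursors that are cross-linked into the cell envelope at the skin surface. Sprr2e (ENSMUSG00000055030, chromosome 3, 92352143 to 92353449, plus strand) was 6.88, 9.10 and 8.23 FPKM without and 21.7, 19.96 and 21.6 FPKM with IL-17A. The 3 cultures were close to each other within each condition, with means of 8.07 ± 1.12 and 21.1 ± 0.961 FPKM (SD, n = 3). The log2 change was 1.29 (SE 0.10, limma adjusted p = 0.0545, and 0.000997 with the random effect, or 0.00525 to 0.0181 when 1 culture was left out).

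Sprr2d was 15.4, 13.0 and 80.6 FPKM without and 39.8, 35.8 and 124 FPKM with IL-17A. Sprr2i was 5.89, 4.97 and 17.9 FPKM without and 15.5, 13.7 and 32.2 FPKM with IL-17A. Sprr2f was 0.980, 0.722 and 6.68 FPKM without and 2.51, 1.86 and 16.5 FPKM with IL-17A. These 3 genes shared a pattern that Sprr2e lacked: culture 3 was highest in both conditions, and its unstimulated level exceeded the treated levels of cultures 1 and 2. Their log2 changes were 1.11, 1.12 and 0.92 (limma adjusted p = 0.256, 0.0733 and 0.251). Sprr2g did not overlap between groups (log2 0.88, limma adjusted p = 0.0733), and Sprr2b, the transcript Sprr2j-ps and Lce3b completed the 8. Sprr2a1, Sprr2a2, Sprr2a3 and Sprr2k moved by -0.01, -0.01, 0.09 and 0.04. Sprr1a, a more distant relative, moved by 0.03, -0.34 and -0.33. Members of the Sprr2 cluster are near-identical copies, so reads can be shared between them and the separate values are uncertain.

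The Sprr2 promoters are shown because their letters can be compared across members of 1 cluster. In the windows of Sprr2e, Sprr2d and Sprr2i the AP-1 pattern TGANTCA occurs as TGAGTCA (capitals) 193 bases before the start, and in Sprr2f and Sprr2b 197 and 195 bases before it. Sprr2i also has a match to the C/EBP pattern in capitals at 95 bases.

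Sprr2e, chr3:92351893-92352192, plus strand: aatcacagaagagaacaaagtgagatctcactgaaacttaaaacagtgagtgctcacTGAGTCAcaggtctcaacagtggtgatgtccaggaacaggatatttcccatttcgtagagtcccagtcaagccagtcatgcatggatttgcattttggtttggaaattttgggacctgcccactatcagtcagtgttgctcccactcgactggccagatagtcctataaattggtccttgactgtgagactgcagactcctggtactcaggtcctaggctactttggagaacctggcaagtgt
Sprr2d, chr3:92338890-92339189, plus strand: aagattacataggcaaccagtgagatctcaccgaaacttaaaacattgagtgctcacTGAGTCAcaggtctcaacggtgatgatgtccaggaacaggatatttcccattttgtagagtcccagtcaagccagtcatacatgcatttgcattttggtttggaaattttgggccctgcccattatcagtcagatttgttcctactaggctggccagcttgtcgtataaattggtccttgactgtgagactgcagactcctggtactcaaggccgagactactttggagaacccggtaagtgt
Sprr2i, chr3:92407741-92408040, plus strand: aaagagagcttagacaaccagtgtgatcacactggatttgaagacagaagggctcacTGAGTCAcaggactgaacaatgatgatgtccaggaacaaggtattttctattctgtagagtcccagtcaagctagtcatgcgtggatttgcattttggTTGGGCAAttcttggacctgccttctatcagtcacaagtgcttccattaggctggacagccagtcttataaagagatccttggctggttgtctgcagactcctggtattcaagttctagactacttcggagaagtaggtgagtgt
Sprr2f, chr3:92364937-92365236, plus strand: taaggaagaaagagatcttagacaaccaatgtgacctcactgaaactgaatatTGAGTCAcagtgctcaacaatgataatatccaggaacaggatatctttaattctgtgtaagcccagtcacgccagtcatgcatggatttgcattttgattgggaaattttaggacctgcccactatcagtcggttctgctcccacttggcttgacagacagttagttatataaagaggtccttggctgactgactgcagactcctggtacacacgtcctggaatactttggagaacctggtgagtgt

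The AP-1 pattern, searched on both strands, was in 22.2% of the 45 windows of the genes up, against 5.14% of the windows of tested genes and 7.81% of all windows. Of the 10 windows with it, 5 are these Sprr2 copies, which are not independent. It was in 0 of the 16 windows of the genes down. Genes of AP-1 factors and other immediate early genes held 0 of 19 members that met the rule (median 0.04). The member with the smallest p was Ier3, at log2 0.39, 0.34 and 0.29 by culture.

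**Figure D3:**
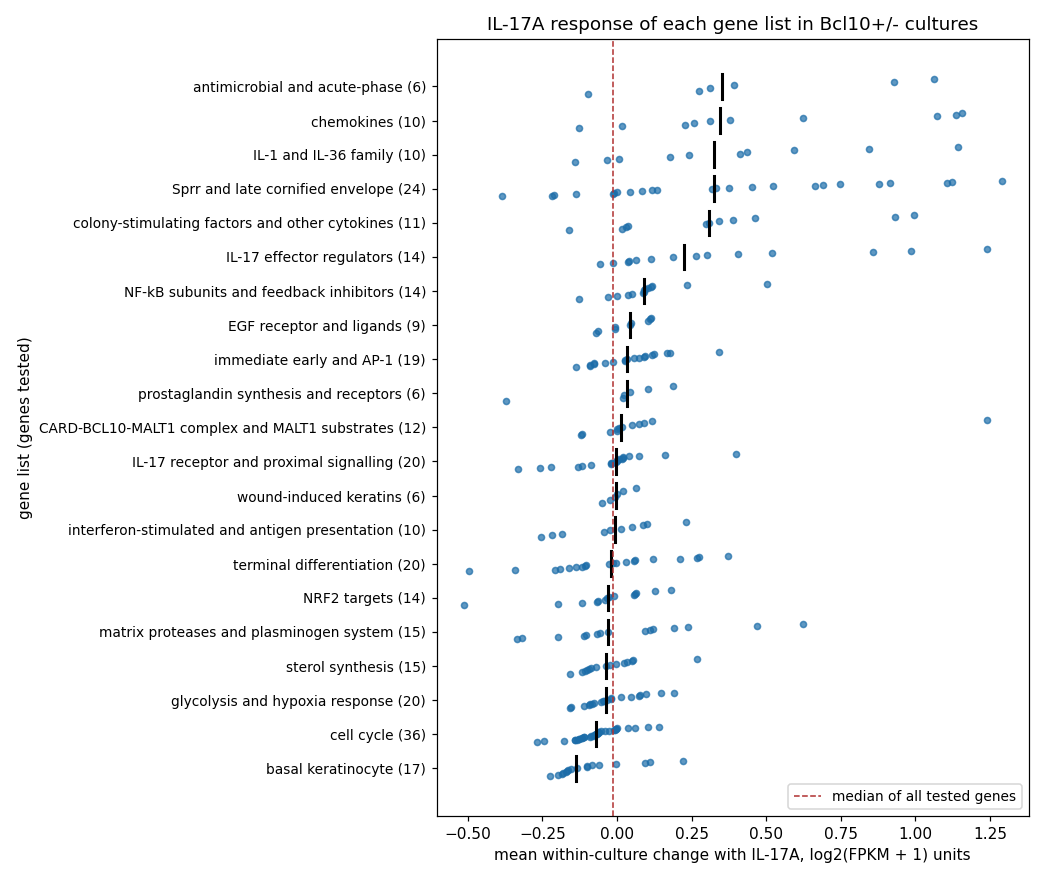
Mean within-culture log2 change with IL-17A (x axis) of every tested member of 21 gene lists (y axis, number of tested genes in brackets), with a black bar for each list's median and a dashed line for the median of all tested genes. Antimicrobial, chemokine, IL-1/IL-36, Sprr and cytokine lists have medians of 0.31 to 0.35, and the basal keratinocyte list the lowest, -0.14.

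Other genes among the 20 with the smallest p were transporters and enzymes. Slc6a14, an amino acid transporter, was 3.30, 13.6 and 12.8 FPKM without and 11.5, 29.8 and 33.9 FPKM with IL-17A. Each culture was higher with IL-17A, while treated culture 1 was below unstimulated cultures 2 and 3. Its log2 change was 1.32 (SE 0.10, limma adjusted p = 0.0545, or 0.155 with the random effect), the highest of the 20. Slc5a1, the sodium-glucose cotransporter, was 0.483, 0.444 and 0.812 FPKM without and 2.11, 1.92 and 2.59 FPKM with IL-17A. It did not overlap between groups, at log2 1.02 (SE 0.07, limma adjusted p = 0.0545, or 0.00115 with the random effect and 0.0164 to 0.0535 when 1 culture was left out). Atp11a, a phospholipid flippase gene, was 15.0, 8.93 and 10.7 FPKM without and 25.1, 13.7 and 17.2 FPKM with IL-17A. The rest were the natriuretic peptide gene Nppb (log2 0.69), the acid phosphatase Acpp (0.63), glycerol kinase Gk (0.54) and the niacin receptor Hcar2 (0.83). The matrix protease Mmp13 met the rule outside these 20, with changes of 0.84, 0.71 and 0.31. It was the 1 of 15 tested members of the protease and plasminogen list to do so, and that list had a median of -0.03. The 6 tested genes of prostaglandin synthesis and its receptors had a median of 0.03, with 0 past the rule.

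Fewer genes met the rule downward. Txndc5, an endoplasmic reticulum protein of the disulfide isomerase family, was 52.7, 39.1 and 34.9 FPKM without and 37.8, 27.2 and 27.2 FPKM with IL-17A. Arntl2, a circadian clock transcription factor, was 4.85, 3.60 and 3.64 FPKM without and 2.89, 2.45 and 2.20 FPKM with IL-17A. All treated Arntl2 values lay under all unstimulated ones, and it was the 1 gene called down with culture as a random effect (log2 -0.51, limma adjusted p = 0.0419, against 0.192 with the fixed block and 0.195 to 0.316 when the random-effect fit left out 1 culture). Pogk was 4.57, 5.20 and 5.15 FPKM without and 1.30, 2.83 and 1.59 FPKM with IL-17A. Its groups were apart too, at log2 -1.07 (SE 0.24, limma adjusted p = 0.490). Others of the 10 were Wnt4, a secreted signalling protein (log2 -0.48), the chloride channel Ano1 (-0.35), the scavenging chemokine receptor Ackr3 (-0.39), Apip of the methionine salvage pathway (-0.44) and the volume-regulated channel subunit Lrrc8d (-0.56).

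Basal keratinocyte genes had a median of -0.14, with 11 of 17 tested members below 0 in 3 of 3 cultures (19.3% of all tested genes) and 0 that met the rule of 0.3. Itgb4, a hemidesmosome integrin, was 198, 108 and 136 FPKM without and 173, 92.5 and 121 FPKM with IL-17A. Lamb3, a laminin chain, was 205, 177 and 245 FPKM without and 179, 150 and 207 FPKM with IL-17A. Col17a1, another hemidesmosome gene, was 330, 166 and 238 FPKM without and 315, 142 and 207 FPKM with IL-17A. In each culture these 3 genes were slightly lower with IL-17A, by less than the difference between cultures. The integrin Itga2 went the other way, with changes of 0.34, 0.16 and 0.17. The sum of all keratinocyte markers was lower with IL-17A in each culture, but it shares Krt5, Krt14 and other genes with this list and is not separate support. In culture 3 it was 12350 FPKM without and 12240 FPKM with IL-17A. The median of the basal list was -0.11 to -0.16 when single cultures were left out.

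Differentiation, wound keratins and growth showed no member past the rule. The 20 terminal differentiation genes had a median of -0.02, with the transglutaminase Tgm1 at log2 0.37 and the envelope protein Lor at -0.50. Krt6a, Krt16 and Krt17, keratins of wounded and psoriatic skin, were already at 3458 to 3626, 548 to 684 and 3899 to 4579 FPKM without IL-17A and moved by -0.0006, 0.06 and -0.0055. The 9 genes of the EGF receptor and its ligands had a median of 0.04. Among 36 cell cycle genes the median was -0.07 and 17 were below 0 in 3 of 3 cultures (19.3% of all tested genes). The replication gene Cdt1 was at -0.25 and the proliferation marker Mki67 at -0.14. Glycolysis, NRF2, sterol and interferon lists had medians of -0.04, -0.03, -0.04 and -0.01 with 0 members past the rule. For 8 of the 21 lists, all with medians within 0.0437 of 0, the sign of the median was not the same in every setting tried (receptor signalling, CARD-BCL10-MALT1, EGF receptor, terminal differentiation, wound keratins, proteases, NRF2 and interferon).

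Culture 1 often had the highest response among the genes up. Among the 65 genes up, 43 had their largest change in culture 1 (66.2%). Of 12054 tested genes 5026 did (41.7%), counted by size in either direction. In 39 of the 65 (60%) culture 1 also had the lowest unstimulated level, against 5116 of all tested genes (42.4%). A low unstimulated value enters both counts, so they are not independent. The 23 genes down had their largest change in culture 1 in 5 (21.7%) and in culture 2 in 12 (52.2%). Of all tested genes 41.7% and 31.8% did so. The SD of the change over all tested genes was 0.32, 0.32 and 0.31 in cultures 1, 2 and 3. Without culture 1, S100a8 was at log2 0.99, Sprr2e at 1.17, Zc3h12a at 1.04, Nfkbiz at 0.68 and Cxcl1 at 0.87, with limma adjusted p = 0.181, 0.210, 0.274, 0.370 and 0.418. For some of the genes up, unstimulated culture 1 stood nearer to the unstimulated Bcl10-/- libraries than to cultures 2 and 3. Cxcl1 was 296 FPKM there, against 343 and 334 FPKM in Bcl10-/-. Csf2 was 1.15 against 0.639 and 0.575 FPKM, and Slc6a14 3.30 against 3.91 and 3.95 FPKM. Cxcl5 was less clear, at 4.22 against 2.81 and 11.8 FPKM. The part of the label conflict, of the library number and of the starting level in the higher response of culture 1 among the genes up was not tested.

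The heterozygous response was set against that of the 2 cultures labelled Bcl10-/- with a test of the difference. By limma 0 of 12054 genes passed (0% called, 624 at an unadjusted p under 0.05 where 602.7 would lie if none differed), with a smallest adjusted p of 0.251. Of the 65 genes up 29 (44.6%) also moved up by at least 0.3 in both Bcl10-/- cultures, and these are 20.4% of the 142 genes that do so there (1.18% of tested genes). Of the 23 genes down 0 did so, among 99 in Bcl10-/- cultures (0.821%). The median change was 0.69 in heterozygous and 0.44 in Bcl10-/- cultures for the 65, and -0.48 and -0.15 for the 23. The genes were chosen on the heterozygous values, which by itself makes those values larger.

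Among the 20 genes up with the smallest p, 17 moved by at least 0.3 in both Bcl10-/- cultures. S100a8 moved by 0.78 and 0.87 there, and the difference in response (heterozygous minus Bcl10-/-) was 0.10 with a 95% interval of -0.14 to 0.34. Zc3h12a moved by 1.63 and 1.29 there (difference -0.22, interval -0.77 to 0.33), and Nfkbiz by 1.05 and 0.83 (difference -0.08, interval -0.54 to 0.38). Sprr2e moved by 1.70 and 1.55 (difference -0.33, interval -0.72 to 0.05). For these genes the intervals hold 0 but also allow differences in either direction, up to the bounds given. Without culture 1 the difference was 0.16 for S100a8 (interval -0.07 to 0.40) and -0.25 for Nfkbiz (interval -0.54 to 0.03). For Zc3h12a it was then -0.42 (interval -0.79 to -0.05) and for Sprr2e -0.45 (interval -0.79 to -0.11), intervals that no longer hold 0, though neither passed over all genes (limma adjusted p = 0.879 for both). Cxcl1 moved by 0.56 and 0.89 (difference 0.43, interval -0.31 to 1.17) and Cxcl2 by 0.22 and 0.71 (difference 0.67, interval -0.05 to 1.40). Without culture 1 the difference was 0.14 for Cxcl1 (interval -0.24 to 0.53) and 0.43 for Cxcl2 (interval -0.15 to 1.01).

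Atp11a, a gene with near-even change in the heterozygous cultures (0.70, 0.57 and 0.63), moved by 0.04 and 0.01 in Bcl10-/- cultures. The difference was 0.61 (interval 0.41 to 0.81, unadjusted p = 0.000402), yet did not pass over all genes (limma adjusted p = 0.538). Steap4 moved by 0.30 and 0.61 there (difference 0.53, interval 0.17 to 0.89, limma adjusted p = 0.779). Of the 10 genes down 7 had an unadjusted p under 0.05 for the difference by limma, as had 5 of the 20 genes up, and 0 passed in either set. Among all 12054 tested genes 624 had such a p. Both sets were chosen on the heterozygous response, which is part of this difference. A surplus of small p-values is therefore built in, and these counts are not a test. Without culture 1 the difference was 0.57 for Atp11a (interval 0.34 to 0.80) and 0.47 for Steap4 (interval 0.06 to 0.88).

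**Figure D4:**
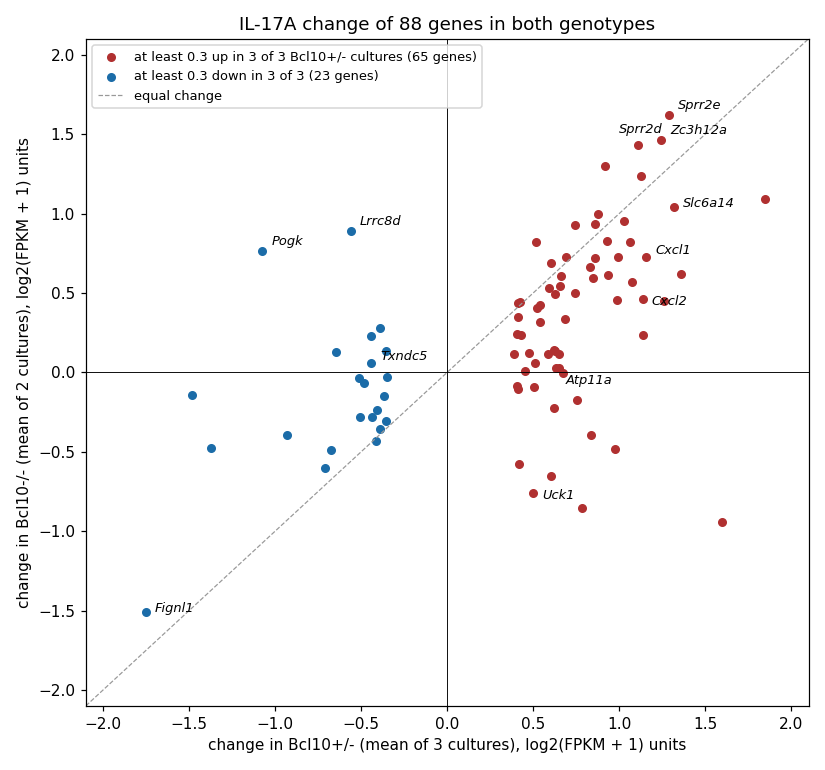
Change with IL-17A in Bcl10-/- cultures (y axis, mean of 2) against that in Bcl10+/- cultures (x axis, mean of 3), both in log2(FPKM + 1) units, for the 65 genes up (red) and 23 down (blue) by the repeat rule, which was applied to the x axis values. Sprr2e and Zc3h12a lie above the dashed line of equal change, Atp11a near 0 on the y axis, and Lrrc8d and Pogk on opposite sides of 0 in the 2 genotypes.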

How the data were processed

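All libraries share 1 deposited table, in which the authors give FPKM for 37991 Ensembl identifiers. The submitters' processing notes name HISAT2, SAMtools, StringTie and DESeq2 and build mm10. Their versions, settings, strand handling and annotation were not given in the sources used here. Among the identifiers 32938 matched a GENCODE M21 gene (GRCm38, the assembly of mm10) and 17074 were at 0 throughout. Depth was estimated from the steps of low FPKM values in genes with a single exon of 300 to 3000 bp. Among values up to 3 steps, 46.0% to 53.3% fell within 0.05 of a whole fragment number, where even spread gives 10%. At these depths 3 fragments in a 1 kb gene equal 0.105 to 0.192 FPKM in the heterozygous libraries, for counting error only.

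The 12054 genes that average 1 FPKM or more in all 10 libraries together were tested on log2(FPKM + 1) with limma 3.58.1 (R 4.3.3, mean-variance trend), with culture as a fixed block and the IL-17A effect nested in genotype. Tests were two-sided with Benjamini-Hochberg adjustment over all tested genes. All 10 libraries were fitted, and 3 residual degrees of freedom remained. The fit was tested on simulated data. The pairing of numbers was checked first: deviations from the group mean of same-numbered heterozygous libraries correlated across genes at 0.61, 0.49 and 0.14. Differently numbered ones correlated at -0.54 to 0.089, with cultures 2 and 3 crossed at 0.069 and 0.089. The same number was thus only slightly ahead for culture 3. With 3 pairs an exact sign-flip permutation test of a single gene cannot go below p = 0.25. Named genes were Bcl10 and Malt1, the 20 protein-coding genes up and 10 down with the smallest p among those that moved 0.3 or more in 3 of 3 cultures, and members of 21 lists. The members, lists and tests were chosen with earlier results of these data known. Alternatives changed the block, pseudocount, filter, scaling, trend, weights and libraries. Promoter windows were taken from RefSeq, without those on chromosome 18.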

Additional observations from a re-analysis of the deposited data

Results flagged for a closer look

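In 7 of 70 named genes (10%) the IL-17A change had 1 sign in every heterozygous culture and the other sign in both Bcl10-/- cultures, as it had in 882 of all 12054 tested genes (7.32%). For 2 of the 7 the Bcl10-/- changes lay close to 0, at 0.12 and 0.0026 for Krt5 and 0.10 and 0.02 for Txndc5. As heterozygous minus Bcl10-/- log2 change, the differences were -0.50 for Txndc5, -1.45 for Lrrc8d, -0.67 for Adgrl1, -1.84 for Pogk, 1.26 for Uck1, -0.17 for Krt5 and 1.72 for Il1rn. The test of the difference passed for none of them by limma (624 of 12054 genes at an unadjusted p under 0.05, 5 called with culture as a random effect), with adjusted p of 0.251 for Uck1, 0.416 for Lrrc8d and 0.779 for the other 5. Uck1, a uridine kinase gene named here after its values were seen, was 4.00, 5.06 and 4.23 FPKM without and 6.57, 6.80 and 6.53 FPKM with IL-17A in heterozygous cultures 1, 2 and 3. It was 6.48 and 7.14 FPKM without and 3.69 and 3.52 FPKM with IL-17A in Bcl10-/- cultures. Il1rn moved by only 0.04 in heterozygous culture 1, against 1.70 and 1.68 in cultures 2 and 3. Pogk moved by 1.34 and 0.18 in the Bcl10-/- cultures, where 1 unstimulated library stood at 1.17 FPKM and the other 3 libraries at 3.97 to 4.64 FPKM.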

How the results depend on the processing

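For IL-17A in heterozygous cultures, 0 genes passed with culture as a fixed block (835 at an unadjusted p under 0.05). Without the replicate block 1 passed, as with no trend, 15 with culture as a random replicate block (16 on the 6 heterozygous libraries alone), 4 with a mean of at least 5 FPKM, 6 with median-of-ratios scaling and 10 with library weights. Leaving out a culture gave 0 to 1, or 3 to 8 with the random block. For the difference between genotypes 0 passed, 5 with the random replicate block, 0 to 11 without single cultures (11 without Bcl10-/- culture 2 and 4 without culture 1), and 0 to 7 with both. The counts of 65 up and 23 down became 32 and 3 at 0.5 log2 units, 1760 and 2331 at 0, 101 and 54 with TPM scaling, 38 and 8 at a mean of 5 FPKM. The 23 became 50 with a pseudocount of 0.1 and 37 with no filter. Leaving out a culture, which asks for agreement in 2 rather than 3, gave 115 to 164 up and 75 to 99 down. Across 70 named genes and 1313 alternative values, 57 passed, 28 changed sign without passing, and no pass could be lost because none had been made. Of the 15 passes with the random replicate block, 10 were made in 0 of the fits that left out a culture, which were chosen after seeing the data, and 1 in all 3. Each lone change rests on 2 or 3 cultures, and genes under about 0.2 FPKM lie near the depth limit.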
